A study of Homo sapiens with 8 samples.

Results

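The 8 genes described here encode the enzymes that set the phosphorylation of the translation factor eIF2alpha, together with the relay that carries a mitochondrial signal to them. They are the 4 eIF2alpha kinases EIF2AK1 (HRI), EIF2AK2 (PKR), EIF2AK3 (PERK) and EIF2AK4 (GCN2), the 2 phosphatase targeting subunits PPP1R15A (GADD34) and PPP1R15B (CReP), and the relay genes OMA1 and DELE1. They were chosen by name for these roles, out of 61806 genes in the count table, and all 8 were among the 14893 genes expressed highly enough to be tested. The libraries were made from polyadenylated RNA of wild-type N/TERT-1 cells, an immortalized line of human epidermal keratinocytes grown in serum-free medium with epidermal growth factor and pituitary extract. There were 4 libraries of cells given ethanol, the solvent, and 4 of cells given O/A, for 4 hours per the study's figure legend. The study defines O/A, where it is first used for imaging, as oligomycin at 10 μM with antimycin A at 4 μM. Oligomycin blocks the mitochondrial ATP synthase and antimycin A blocks complex III of the respiratory chain. The question asked of these data was which transcripts changed when mitochondria were damaged in this way.

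Phosphorylation of eIF2alpha turns it into an inhibitor of its own exchange factor, eIF2B, so that most translation slows while a few transcripts with inhibitory upstream reading frames, such as ATF4, are translated more. Each kinase answers a different input. PERK responds to misfolded protein in the endoplasmic reticulum (ER), PKR to double-stranded RNA, GCN2 to uncharged tRNA and stalled ribosomes, and HRI to low heme. HRI is also the receiver of the mitochondrial relay, in which the inner membrane protease OMA1 cleaves DELE1 and DELE1 then binds HRI in the cytosol. GADD34 and CReP each bring protein phosphatase 1 to eIF2alpha and reverse the mark. GADD34 is the inducible subunit and CReP the constitutive one. These are events of protein activity, and the values below are of transcripts only.

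The libraries held 17210404 to 20999927 counted reads in the ethanol group and 17689760 to 19263046 in the O/A group. The keratinocyte markers were abundant throughout, with 8 genes summing to 3230 to 3480 FPKM (counts per kilobase of exonic gene size per 1000000 counted reads) in the ethanol libraries and to between 2920 and 3070 in the O/A libraries. Of these markers KRT5 was lower in O/A, with a log2(FC), the log2 fold change of O/A over ethanol, of -0.30. The 6 fibroblast markers summed to between 2.42 and 2.95 FPKM across the ethanol libraries and between 2.45 and 2.69 across the O/A libraries. The melanocyte, endothelial, immune and erythroid markers each summed to at most 0.66 FPKM in any library, and MLANA, TYR, HBB and ALAS2 were at 0 in every library. In bulk RNA of this kind, fewer cells and less RNA per cell cannot be told apart.

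A promoter sequence was found for 7 of the 8 genes in RefSeq (GRCh38.p14), all but EIF2AK1. The 250 bases before each start site were searched on both strands for the C/EBP-ATF composite element TGATGNAA, which ATF4 and CHOP bind, for the cAMP response element TGACGTCA, for the unfolded protein response element TGACGTGG, and for the ER stress response element, in which CCAAT and CCACG lie 9 bases apart. No match overlapped another in the promoters of these genes. A match was found for 2 of the 7 genes, the 2 phosphatase subunits, and they are shown because these 2 genes rose. PPP1R15A held TGACGTCA from base -58 to base -51 of its start site. This element was present in 1.65% of the 35116 promoters searched. PPP1R15B held TGATGCAA, a form of the composite element, from base -227 to base -220, and 3.14% of promoters held that element. In EIF2AK3, the kinase that rose, no match to the 4 elements was found in this window, and the same was true of OMA1, DELE1, EIF2AK2 and EIF2AK4. The unfolded protein response element was present in 0.612% of all promoters and the ER stress response element in 0.074%. The stretches that follow run 5′ to 3′ along the gene, with a match in capitals, and leave out exons of protein-coding genes annotated in GENCODE, except that 30 bases are given around the element of PPP1R15A, which lies in an exon of another of its annotated transcripts.
PPP1R15A, chr19:48872352-48872381, plus strand: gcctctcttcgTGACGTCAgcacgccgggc
PPP1R15B, chr1:204411888-204412067, minus strand: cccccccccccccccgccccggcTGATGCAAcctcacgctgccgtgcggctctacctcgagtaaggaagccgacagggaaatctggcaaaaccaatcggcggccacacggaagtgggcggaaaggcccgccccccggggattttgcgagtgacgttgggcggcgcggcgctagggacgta
EIF2AK3, chr2:88627465-88627714, minus strand: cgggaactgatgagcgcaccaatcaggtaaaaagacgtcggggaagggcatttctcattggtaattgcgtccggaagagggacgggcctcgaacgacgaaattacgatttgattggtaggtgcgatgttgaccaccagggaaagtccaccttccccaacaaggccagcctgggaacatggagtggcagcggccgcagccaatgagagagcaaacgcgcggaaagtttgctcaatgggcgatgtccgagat

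The 8 transcripts did not move together. In O/A, 4 genes rose, PPP1R15A, EIF2AK3, PPP1R15B and DELE1, and 1 fell, OMA1. The other 3 kinases, EIF2AK1, EIF2AK2 and EIF2AK4, did not pass both thresholds, which were an absolute log2(FC) above 0.25 together with a p-value from edgeR's quasi-likelihood test that did not exceed 0.05 once adjusted over all genes tested. Of all genes tested, 15.8% rose and 18.9% fell past both thresholds, so that calls were common in these data. The p-value threshold alone was met by 6 of the 8 genes, EIF2AK4 among them, and by 53.7% of all genes tested. The 2 groups of libraries did not overlap for 6 of the 8 genes, and for 47.6% of all genes tested. The median log2(FC) of the 8 genes was 0.17, and that of all genes tested was -0.0004. The changes of the 8 genes ranged from the 53rd highest of all genes tested, for PPP1R15A, to the 1358th lowest, for OMA1.

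**Figure D1:**
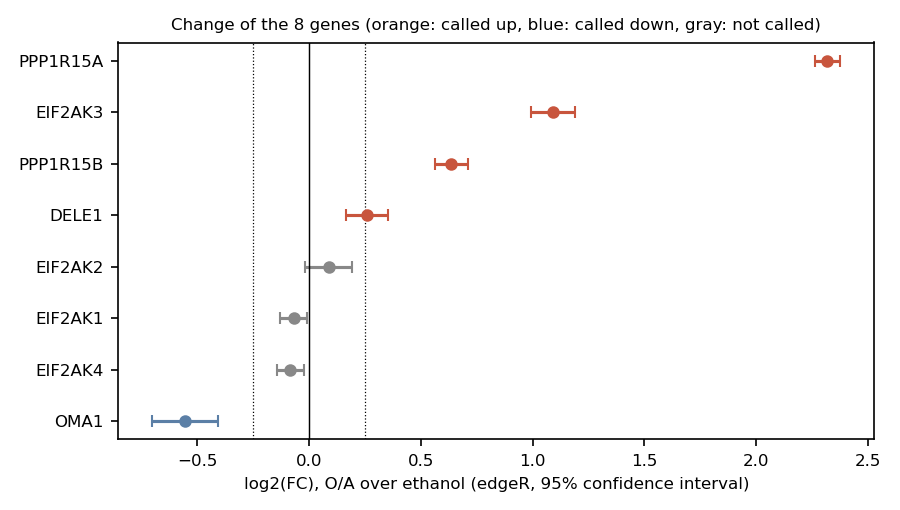
Log2 fold change of O/A over ethanol for the 8 genes (horizontal axis), with points for the edgeR estimate over 4 libraries per group and bars for the 95% confidence interval. Dotted lines mark the fold change threshold of 0.25 in each direction. PPP1R15A stands apart at 2.32, EIF2AK3, PPP1R15B and DELE1 follow, and OMA1 is the gene called lower.

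PPP1R15A, the inducible phosphatase subunit, rose the most. The gene lies on chromosome 19 from 48872421 to 48876058 on the plus strand (GRCh38.p13, as are all gene positions given here). In counts per 1000000 reads (CPM) scaled by TMM, the trimmed mean of M values, the ethanol libraries held 124, 120, 118 and 120 in the order of replicates 1 to 4. The O/A libraries held 605, 576, 614 and 604 CPM. Every O/A library was far above every ethanol library, and within a group the libraries lay close together. The level was 39.8 ± 0.640 FPKM (SD, n = 4) with ethanol alone, and O/A cells had 192 ± 4.75 FPKM (SD, n = 4). The log2(FC) was 2.32 with a standard error of 0.028 and a 95% confidence interval of 2.26 to 2.37, a 4.985-fold rise (adjusted p = 6.94e-50, edgeR's quasi-likelihood test). A change of this size in either direction was seen in 0.443% of the genes tested. In O/A the transcript stood above 99.0% of the genes tested by FPKM, and in ethanol above 93.7%.

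PPP1R15B, the constitutive phosphatase subunit, rose as well, but by less. The gene lies on chromosome 1 from 204396492 to 204411887 on the minus strand. The ethanol libraries held 76.4, 82.7, 74.4 and 80.1 TMM-scaled CPM, and the O/A libraries held 118, 118, 126 and 126. The groups did not overlap. Its log2(FC) was 0.64 with a standard error of 0.036 and a confidence interval of 0.57 to 0.71, a 1.555-fold rise (adjusted p = 2.82e-21, edgeR's quasi-likelihood test). Its level went from 8.52 ± 0.393 to 12.8 ± 0.466 FPKM (SD, n = 4).

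The rise of PPP1R15A was larger than that of PPP1R15B, as tested by the log2 ratio of their counts within each library, which does not depend on the scaling of the libraries. The ratio of their FPKM was 4.68 in ethanol and 14.98 in O/A as geometric means, and the log2 ratio was higher in O/A by 1.68 with a standard error of 0.042. The exact two-sided permutation test gave p = 0.0286, the smallest that 4 libraries against 4 allow, and 0.0457 after adjustment over the 8 pairs of genes compared in this way. PPP1R15A made up 82.4% ± 0.721 of the summed FPKM of the 2 subunits in ethanol and 93.7% ± 0.178 in O/A. The summed FPKM of both subunits went from 48.3 ± 0.728 to 205 ± 5.03, and that of the 4 kinases from 60.4 ± 1.51 to 58.8 ± 0.881. The ratio of phosphatase subunit to kinase transcripts was thus 0.800 ± 0.024 in ethanol and 3.49 ± 0.136 in O/A. The small difference in the kinase sum turned with the scale, since in CPM per kilobase of MANE Select transcript, the reference transcript agreed between RefSeq and Ensembl, the 4 kinases summed to 90.5 ± 2.22 in ethanol and 92.0 ± 0.840 in O/A. On that scale, added after seeing the data, the ratio was 0.741 ± 0.023 in ethanol and 2.98 ± 0.096 in O/A.

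**Figure D2:**
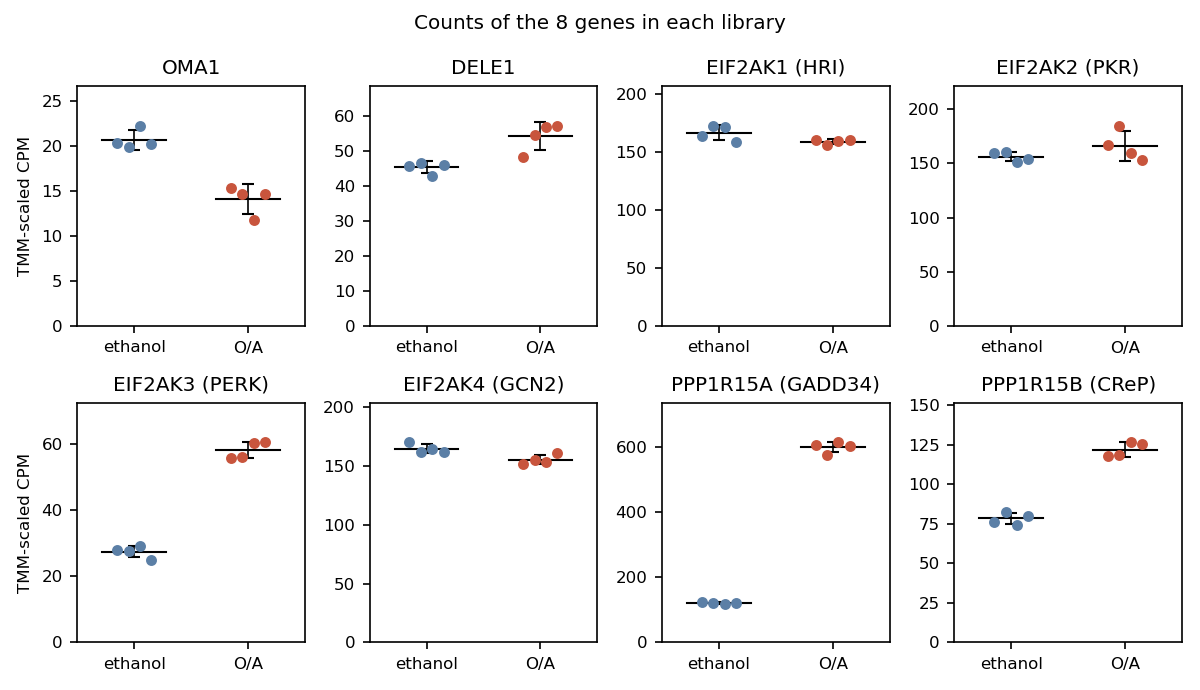
TMM-scaled CPM (vertical axes, each starting at 0) of the 8 genes in the 4 ethanol and the 4 O/A libraries, with replicates 1 to 4 from left to right. Points are libraries, horizontal lines are group means and error bars are SD; the groups overlap only for EIF2AK1 and EIF2AK2, and for PPP1R15A the O/A libraries sit between 576 and 614 against 118 to 124 in ethanol.

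Among the kinases, EIF2AK3, which encodes the ER stress kinase PERK, was the one that rose. It lies on chromosome 2 from 88556741 to 88691518 on the minus strand. The ethanol libraries held 27.9, 27.6, 29.1 and 25.1 TMM-scaled CPM, and the O/A libraries held 55.9, 56.1, 60.3 and 60.5. The lowest O/A library was well above the highest ethanol library. The log2(FC) was 1.09 with a standard error of 0.049 and a confidence interval of 0.99 to 1.19, a 2.128-fold rise (adjusted p = 3.12e-25, edgeR's quasi-likelihood test). A change at least as large was seen in 4.3% of the genes tested. EIF2AK3 rested on 492 to 533 reads in each ethanol library and on 971 to 1140 in each O/A library, fewer than any other kinase.

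EIF2AK1, which encodes the kinase HRI that DELE1 binds, showed no change past the thresholds. It lies on chromosome 7 from 6022247 to 6059175 on the minus strand. The ethanol libraries held 164, 173, 172 and 158 TMM-scaled CPM, and the O/A libraries held 160, 156, 160 and 160. The O/A values lay inside the lower part of the range of the ethanol values and below it. The log2(FC) was -0.07 with a standard error of 0.030 and a confidence interval of -0.13 to -0.007 (adjusted p = 0.0554, edgeR's quasi-likelihood test), and the exact permutation test gave p = 0.114. EIF2AK1 shares 1588 bases with AIMP2, a gene on the opposite strand which held 939 to 1028 counts per library in ethanol and between 742 and 791 in O/A. Whether the counting used strand is not given in the sources used here, so reads in the shared stretch could not be assigned with certainty, and the part of AIMP2 in the value of EIF2AK1 was not tested.

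EIF2AK4, which encodes the amino acid sensor GCN2, was inside the fold change threshold. It lies on chromosome 15 from 39934115 to 40035591 on the plus strand. The ethanol libraries held 170, 161, 165 and 162 TMM-scaled CPM, and the O/A libraries held 152, 155, 154 and 161. The groups did not overlap, although the highest O/A library came within 1 CPM of the lowest ethanol library. The log2(FC) of -0.08 with a standard error of 0.030 and a confidence interval of -0.14 to -0.02 had an adjusted p of 0.0157 by edgeR's quasi-likelihood test. That p did not hold in every fit. It was 0.0602 with DESeq2, and with edgeR it was 0.118 without ethanol replicate 1 and 0.0681, 0.0609 and 0.0626 without O/A replicates 1, 2 and 3.

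EIF2AK2, which encodes PKR and is itself an interferon-stimulated gene, did not pass both thresholds. It lies on chromosome 2 from 37099210 to 37157522 on the minus strand. The ethanol libraries held 159, 161, 151 and 154 TMM-scaled CPM, and the O/A libraries held 167, 185, 159 and 153. The O/A libraries spread more widely than the ethanol libraries, and the groups overlapped. The log2(FC) was 0.09 with a standard error of 0.048 and a confidence interval of -0.02 to 0.19 (adjusted p = 0.148, edgeR's quasi-likelihood test), and the exact permutation test gave p = 0.229. Without O/A replicate 4 the log2(FC) was 0.13 with an adjusted p of 0.00753 by edgeR's quasi-likelihood test, still inside the fold change threshold, and without O/A replicate 2 it was 0.04. The library with the highest value, O/A replicate 2, also had the most transcript of other interferon-stimulated genes within its group. The 16 genes of that list summed to 132, 148, 130 and 115 FPKM in the ethanol libraries and to 108, 136, 97.0 and 90.2 FPKM in the O/A libraries, in the order of replicates 1 to 4. In each group the replicate with the largest sum was replicate 2, which in each group was also the highest for EIF2AK2. The part of interferon-stimulated expression in the value of EIF2AK2 was not tested. EIF2AK2 also meets GPATCH11, on the opposite strand, over 35 bases.

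**Figure D3:**
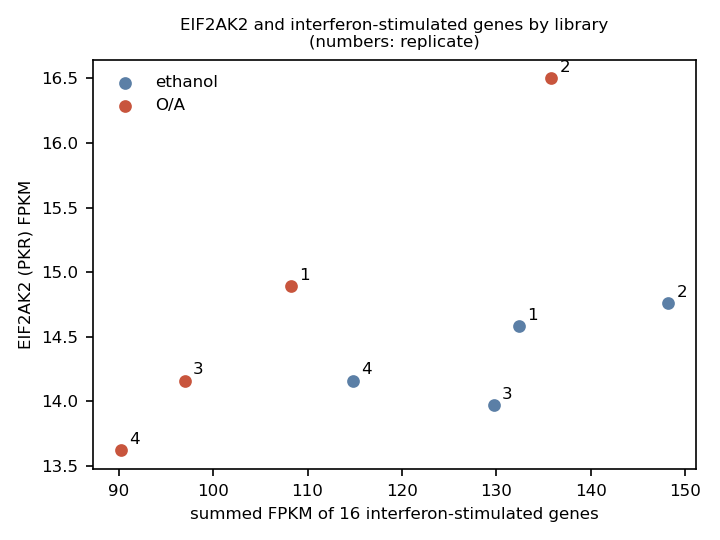
FPKM of EIF2AK2 (vertical axis) against the summed FPKM of 16 other interferon-stimulated genes (horizontal axis) in the 8 libraries, numbered by replicate; neither axis starts at 0. O/A replicate 2, at 16.5 FPKM of EIF2AK2 and a sum of 136 FPKM, lies apart from the other O/A libraries.

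The rise of EIF2AK3 set it apart from the other kinases in direct comparison. The log2 ratio of EIF2AK3 to EIF2AK4 was higher in O/A by 1.17 with a standard error of 0.048. The log2 ratio of EIF2AK1 to EIF2AK3 differed by -1.15 with a standard error of 0.040, which is lower in O/A, and that of EIF2AK2 to EIF2AK3 differed by -1.002 with a standard error of 0.0999. Each of these 3 differences had an adjusted p of 0.0457 by the exact permutation test. The unadjusted p of each was 0.0286, the smallest that 4 libraries against 4 allow. The adjusted p was below 0.05 only because enough of the pairs compared reached that value, so it does not grade the evidence for each pair. Among the kinases that did not rise, the difference was 0.02 for EIF2AK1 over EIF2AK4 (standard error 0.040, adjusted p = 0.657 by the exact permutation test). For EIF2AK1 over EIF2AK2 it was -0.15 with a standard error of 0.074, and the exact permutation test gave an adjusted p of 0.098. For EIF2AK2 over EIF2AK4 it was 0.17 with a standard error of 0.072 and an adjusted p of 0.0762 by the same exact test.

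In the makeup of the kinase transcripts, EIF2AK1 held the largest share in both conditions. By FPKM its share was 51.0% ± 1.06 in ethanol and 48.5% ± 1.11 in O/A (SD, n = 4). EIF2AK3 went from 2.22% ± 0.099 to 4.71% ± 0.252, with no overlap between the groups. EIF2AK2 went from 23.8% ± 0.685 to 25.1% ± 1.75, and EIF2AK4 from 23.0% ± 0.682 to 21.7% ± 0.638. After adjustment over the 4 kinases the exact permutation test gave p = 0.0571 for EIF2AK1 and for EIF2AK3. The same exact permutation test gave an adjusted p of 0.2 for EIF2AK2 and 0.0762 for EIF2AK4, so that none of these shares passed at 0.05. For EIF2AK1 and EIF2AK3 the exact permutation test gave an unadjusted p of 0.0286, the smallest that 4 libraries against 4 allow. The shares of the kinases depended on the length used. The exonic gene size of EIF2AK3 in the deposited table was 20691 bases, 4.56 times its MANE Select transcript of 4536 bases, while for the other kinases this ratio was 1.11 to 2.16. Per kilobase of MANE Select transcript, an alternative chosen after seeing the data, EIF2AK3 held 6.77% ± 0.287 in ethanol and 13.7% ± 0.602 in O/A, EIF2AK1 42.4% and 38.5%, and EIF2AK4 33.3% and 29.97%. These 3 shares had an adjusted p of 0.0381 by the exact permutation test. EIF2AK2 held 17.6% in ethanol and 17.8% in O/A, with an adjusted p of 0.8 by the same test. On this scale EIF2AK2 was thus well below EIF2AK4, whereas the 2 were close by FPKM. The unadjusted p of EIF2AK1 and EIF2AK3 by the exact permutation test was 0.0286 on this scale too. Their adjusted p was lower only because EIF2AK4 also reached that smallest value, so it is no stronger evidence for EIF2AK1 or EIF2AK3.

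The 2 genes of the mitochondrial relay moved in opposite directions. OMA1, which encodes the protease, lies on chromosome 1 from 58415384 to 58546802 on the minus strand. Its ethanol libraries held 20.4, 19.9, 22.3 and 20.2 TMM-scaled CPM, and its O/A libraries held 15.4, 14.7, 11.8 and 14.7. Every O/A library was below every ethanol library, with replicate 3 the lowest of the O/A group and the highest of the ethanol group. The log2(FC) was -0.55 with a standard error of 0.073 and a confidence interval of -0.70 to -0.40, which is 0.682 of the ethanol level (adjusted p = 6.75e-09, edgeR's quasi-likelihood test). A change at least as large was seen in 16.8% of the genes tested. OMA1 had the fewest reads of the 8 genes in O/A, 222 to 272 per library against 355 to 430 in ethanol. Its level went from 5.65 ± 0.311 to 3.74 ± 0.432 FPKM (SD, n = 4).

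DELE1, which encodes the messenger that OMA1 cleaves, lies on chromosome 5 from 141923855 to 141942047 on the plus strand. Its ethanol libraries held 45.8, 46.8, 42.8 and 46.1 TMM-scaled CPM, and its O/A libraries held 48.5, 54.6, 56.9 and 57.2. The groups did not overlap, with O/A replicate 1 just above the ethanol libraries and the other O/A libraries further off. The log2(FC) was 0.26 with a standard error of 0.047 and a confidence interval of 0.16 to 0.35 (adjusted p = 6.63e-06, edgeR's quasi-likelihood test). This value was close to the threshold of 0.25, and it lay within the threshold without ethanol replicate 3 (0.24), O/A replicate 3 (0.24) or O/A replicate 4 (0.24). The log2 ratio of OMA1 to DELE1 differed by -0.81 between O/A and ethanol with a standard error of 0.143 (adjusted p = 0.0457, exact permutation test). The unadjusted p of that exact permutation test was 0.0286, again the smallest that 4 libraries against 4 allow. As geometric means of FPKM, OMA1 stood at 0.736 of DELE1 in ethanol and at 0.419 in O/A. Which gene was higher in ethanol depended on the length used. In CPM per kilobase of MANE Select transcript, OMA1 was at 11.3 in ethanol and DELE1 at 9.38. In O/A they were at 7.47 and 10.9.

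Ordered by FPKM in ethanol, PPP1R15A (39.8) was followed by EIF2AK1 (30.8), EIF2AK2 (14.4), EIF2AK4 (13.9), PPP1R15B (8.52), DELE1 (7.68), OMA1 (5.65) and EIF2AK3 (1.34). In this order only the neighbours EIF2AK2 and EIF2AK4 overlapped in their libraries. In O/A the order by FPKM was PPP1R15A (192), EIF2AK1 (28.5), EIF2AK2 (14.8), PPP1R15B (12.8), EIF2AK4 (12.7), DELE1 (8.89), OMA1 (3.74) and EIF2AK3 (2.77), and only PPP1R15B and EIF2AK4 overlapped. These orders depended on the exonic sizes used, and the last place of EIF2AK3 in O/A was not the only place that changed. In CPM per kilobase of MANE Select transcript, EIF2AK3 was at 6.13 in ethanol, below OMA1 (11.3) and DELE1 (9.38). On the same scale it was at 12.6 in O/A, above DELE1 (10.9) and OMA1 (7.47). EIF2AK4 was at 30.1 in ethanol and 27.6 in O/A, well above EIF2AK2 at 15.9 and 16.4. PPP1R15B, at 22.8 in O/A, was then also above EIF2AK2.

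In the 4 lists of genes that work directly with these enzymes, 7 of 42 genes rose (16.7%) and 4 fell (9.52%), beside 15.8% and 18.9% of all genes tested. Of the 8 eIF2 and eIF2B subunits, 2 rose and none fell. They were EIF2S2, the beta subunit of eIF2, with a log2(FC) of 0.76, and EIF2B2, a regulatory subunit of eIF2B, with 0.31. The lowest values were -0.13 for EIF2S1, which encodes eIF2alpha itself, and -0.07 for EIF2B1, and the median was 0.05.

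Of the 10 regulators and cofactors of the kinases, 3 rose and 2 fell, with a median log2(FC) of 0.03. HSPA5, the ER chaperone BiP that binds PERK, had a log2(FC) of 1.77, HSP90AA1, a cytosolic chaperone, 0.39, and PRKRA, an activator of PKR, 0.37. TARBP2, an inhibitor of PKR, had -0.35, and IMPACT, an inhibitor of GCN2 activation, had -0.25, just past the threshold. Of the 8 catalytic subunits and partners of the phosphatases, PPP1R2 rose (0.40) and PPP1R8 fell (-0.38), both of which encode inhibitors of protein phosphatase 1. SMARCB1 stood at 0.23 and PPP1CC, a catalytic subunit, at -0.14, and the median was 0.05. Of the 16 mitochondrial partners of OMA1 and DELE1, LONP1, a matrix protease, rose (0.41) and HTRA2, an intermembrane space protease, fell (-0.51). YME1L1, an inner membrane protease, stood at 0.17 and PGAM5 at -0.21, both within the threshold, and the median was -0.03.

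Downstream, 13 of the 14 ATF4 and CHOP target genes tested rose and none fell, with a median log2(FC) of 2.33. For this list and those below, the shares over all genes tested were 15.8% risen and 18.9% fallen. ASNS, asparagine synthetase, had 5.22 and CHAC1, which degrades glutathione, had 4.88. The lowest were DDIT4 with 0.50 and ERO1A with 0.10, the latter within the threshold, and NUPR1 had too few reads to be tested. Of the 9 transcripts listed for inhibitory upstream reading frames, DDIT3 again among them, 6 rose and 3 fell, with a median of 0.61. DDIT3, which encodes CHOP, had 3.90, CEBPB 2.11 and ATF4 1.54, while ATF5 (-0.66), SLC35A4 (-0.51) and CEBPA (-0.34) fell. Of the 12 genes listed under the ATF6 and XBP1 branch of the unfolded protein response, 10 rose and none fell, with a median of 0.43. The branch through which each of them rose was not tested. DNAJB9 had 3.35 and HERPUD1 2.92, and the lowest were PDIA6 with 0.12 and SDF2L1 with 0.04. DDIT3 and HSPA5 are each counted in more than 1 list.

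The interferon-stimulated genes, of which EIF2AK2 is also one, had a median log2(FC) of -0.21. Of the 16, 2 rose and 3 fell, near the shares over all genes tested (15.8% and 18.9%). IRF7 (0.53) and IRF9 (0.33) rose, and IFIT3 (-1.23), IFIT1 (-1.19) and IFIT2 (-1.17) fell. Without O/A replicate 2, the highest of its group for EIF2AK2 and for the sum of these genes, 9 of the 16 fell and 2 rose. Leaving out that library lowers the O/A mean of their sum by construction. Ethanol replicate 2, also the highest of its group, was kept, so no conclusion is drawn from this count. When any other library was left out, 3 fell and 2 rose, as with all libraries.

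**Figure D4:**
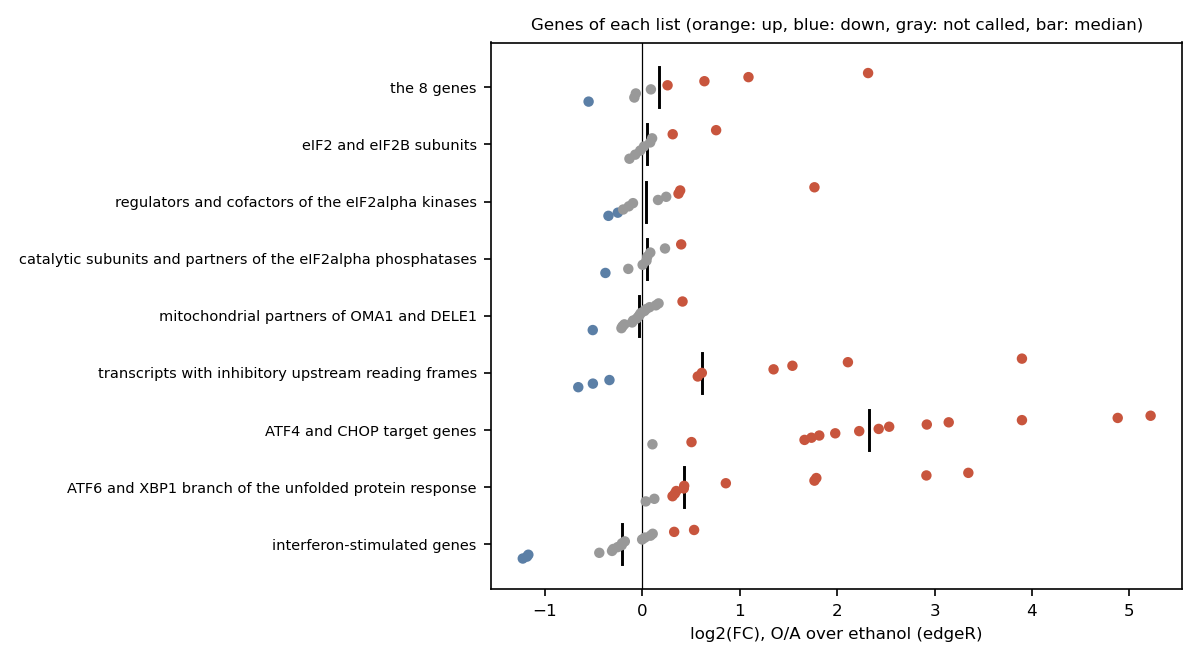
Log2 fold change of O/A over ethanol (horizontal axis) for the 8 genes and for the tested genes of 8 related lists. Points are genes, colored by whether they passed both thresholds, and black bars are medians, which lie at 2.33 for ATF4 and CHOP target genes and between -0.03 and 0.05 for the subunits, regulators and partners in the 4 lists under the 8 genes.

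The genes whose pattern over the 8 libraries was most like that of PPP1R15A, by the Pearson correlation of log2 TMM-scaled CPM, were HERPUD1 (0.9998), TRIB3 (0.9996) and AREG (0.9996). Those most like OMA1 were PAK1IP1 (0.994), MPI (0.9931) and RTKN2 (0.9925), whose log2(FC) values were -0.20, -0.37 and -0.26. A correlation of at least 0.99 was reached by 393 genes with PPP1R15A and by 3 with OMA1, so the genes named for PPP1R15A are few of many. The 8 libraries fall into 2 groups, the points of each share a treatment, and the correlations are given as a description only.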

How the data were processed

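RNA of 8 N/TERT-1 cultures, 4 per condition and per the study's methods from independent experiments, was sequenced after oligo(dT) selection. The authors aligned reads to GRCh38.p13 with HISAT2 2.0.1 and made the deposited counts per Ensembl gene with HTSeq 0.6.1. The Ensembl release and strand setting are not given in the sources used here. The authors divided these counts by the exonic gene size and the library total to give the deposited FPKM. A deposited table of the authors' DESeq2 comparison (fold changes and p-values) was not used.

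Genes for which 4 or more libraries held 10 or more counts were fitted with edgeR 4.0.16 (R 4.3.3, TMM scaling, robust quasi-likelihood test without a block), and p-values were adjusted over all of them by the Benjamini-Hochberg method. Standard errors were derived from the F statistic. Ratios within a library used counts plus 0.5, and these and the shares were compared by exact permutation tests. The fit was tested on simulated data with 200 changed genes. Alternatives were DESeq2 1.42.0, limma 3.58.1 on log2(FPKM + 0.1) and log2(FPKM + 1), median-ratio and upper-quartile scaling, all genes without a filter, a minimum mean FPKM of 5, other fold change thresholds, the replicate number as a block and each library left out.

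All 8 genes are named, and of each list the 2 highest and 2 lowest log2(FC) values and the genes behind small counts. The genes and lists were chosen with earlier results of these data known. KRT5 was named after its value was seen. A marker gene is not reported here.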

Additional observations from a re-analysis of the deposited data

Results flagged for a closer look

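Among 24 groups of 4 libraries examined for the 8 genes and the kinase shares, 2 held a library far from the other 3. Chance would give about 1.2 if the groups were independent. They were not, since each share was computed from counts of the same genes, and both flags fell on EIF2AK1 in the same library. EIF2AK1 in O/A replicate 2 was at 156.4 TMM-scaled CPM, below the other O/A libraries, which lay within 1 CPM of each other. The ethanol libraries of this gene spread more widely, from 158 to 173. The share of EIF2AK1 in the summed FPKM of the 4 kinases was 46.8% in the same library, the one in which EIF2AK2 was highest.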

How the results depend on the processing

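Of the 8 genes, 5 passed both thresholds. With a minimum mean FPKM of 5 the number was 2, since OMA1 and EIF2AK3 were then not tested and DELE1 lay within the threshold, and above an absolute log2(FC) of 1 it was also 2. With no fold change threshold it was 6, EIF2AK4 being added, and with each library left out it was 4 to 5. DELE1 was the gene that lay near the threshold, with 0.226 under upper-quartile scaling, 0.243 with that minimum, 0.208 on log2(FPKM + 0.1), 0.188 on log2(FPKM + 1) and 0.235 to 0.313 with each library left out. The log2(FC) of PPP1R15A, PPP1R15B, EIF2AK3 and OMA1 kept its direction and its call at the threshold of 0.25 in every alternative fit that tested the gene, and the other 3 kinases stayed uncalled there. The adjusted p alone crossed 0.05 for these 3. With edgeR it was 0.00422 for EIF2AK1 under upper-quartile scaling and 0.0389 for EIF2AK2 with no filter, and it was 0.0602 for EIF2AK4 with DESeq2.

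The log2 ratio of EIF2AK1 to EIF2AK4 turned to -0.0074 without ethanol replicate 1 and to -0.0014 without ethanol replicate 4, in a range of -0.0074 to 0.041 with each library left out. That of EIF2AK1 to EIF2AK2 ranged from -0.192 to -0.091 and that of EIF2AK2 to EIF2AK4 from 0.114 to 0.221, and each passed the exact permutation test without O/A replicate 4 (adjusted p = 0.0327). Over all genes tested, the deviations of libraries with the same replicate number had correlations of -0.028 to 0.074, and the labels name no shared source, so the numbers were not taken as pairs. The interferon-stimulated genes and EIF2AK2 are an exception in that replicate 2 was the highest in both groups. For the summed interferon-stimulated genes the whole order was shared, with replicates 2, 1, 3 and 4 from highest to lowest in each group. With a replicate block, edgeR called 5160 genes in place of 5165, and the adjusted p of EIF2AK2 was 0.02 in place of 0.148 at a log2(FC) of 0.08, inside the threshold. Under that pairing, an exact sign-flip test of 4 pairs cannot go below p = 0.125, and the log2 ratios called above (-1.15, -1.002, 1.17, 1.68 and -0.81) had an adjusted p of 0.167.

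The share of EIF2AK1 differed by -2.84 percentage points by counts and -3.83 per MANE Select length. That of EIF2AK3 differed by 5.49 and 6.94, and that of EIF2AK4 by -3.10 and -3.33. All had an adjusted p of 0.0381 by the exact permutation test. For EIF2AK1 and EIF2AK3 the unadjusted p by the exact permutation test was 0.0286 by FPKM, counts and MANE Select length alike. With each library left out, the differences ranged from -2.83 to -1.94 for EIF2AK1 (-2.71 without O/A replicate 4), from 0.596 to 1.96 for EIF2AK2 and from 2.41 to 2.57 for EIF2AK3, and all 3 passed without O/A replicate 4.

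Among the kinase regulators 1 gene fell in place of 2 with DESeq2, and 1 to 2 with each library left out. Of the phosphatase partners 1 to 2 rose with each library left out. Of the interferon-stimulated genes 6 fell with the replicate block and 3 to 9 with each library left out, 9 only without O/A replicate 2. The log2 ratio of O/A to ethanol for the summed kinase level was -0.04 by FPKM, 0.02 per MANE Select length and 0.06 by TMM-scaled CPM, and for phosphatase subunits over kinases it was 2.13, 2.00 and 1.80. The cause of these shifts was not tested. OMA1 had the fewest reads of the 8 genes in both groups, and p-values measure the spread between these cultures only.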
